A study of Homo sapiens with 6 samples.

Results

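The genes described here encode 9 enzymes that modify collagen on its way into the extracellular matrix, taken by name from the count table: the lysyl oxidases LOX, LOXL1, LOXL2, LOXL3 and LOXL4, the lysyl hydroxylases PLOD1, PLOD2 and PLOD3, and P4HA3. They are 9 of 21676 gene symbols in that table, and 8 of them passed the filter on low counts, P4HA3 being the exception. RNA was sequenced from the 83 cell line, which the submitters call a SACC cell, the usual abbreviation of salivary adenoid cystic carcinoma. There were 3 libraries of cells with ApoD overexpression and 3 control libraries of the same line. The labels do not say how ApoD was introduced, whether the cells were a clone or a pool, what the controls received, or whether the numbered libraries are separate cultures. Each p-value is thus set against library-to-library spread that could be technical in origin.

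Collagen chains are hydroxylated in the endoplasmic reticulum, where prolyl hydroxylases stabilise the triple helix and lysyl hydroxylases prepare lysines for glycosylation and cross-linking. After secretion, the copper-dependent lysyl oxidases turn lysines and hydroxylysines into aldehydes, from which covalent cross-links form. The hydroxylases need iron, oxoglutarate, oxygen and ascorbate. In solid tumours this enzyme set is known for its part in stiffening the matrix. P4HA3 is a catalytic subunit of prolyl 4-hydroxylase, so it acts on proline and not on lysine.

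The enzymes did not move as a block. Of the 8 tested genes, 4 fell with ApoD overexpression (LOXL4, LOX, PLOD2 and LOXL2), 3 rose (LOXL3, PLOD3 and PLOD1), and LOXL1 did not pass. LOXL4 stood far from the rest, at 6.51% of its control level, while the other changes that passed lay between a fall to 56.5% of control and a rise to 2.70 times control. The share called over all 14629 tested genes was 48.8% (24.2% higher and 24.6% lower; edgeR adjusted p under 0.05). The members were picked with results of these data known, so nothing is read from their own share. The median log2 fold change was −0.58 over the 8 tested members and −0.02 over all tested genes.

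Upstream sequences are shown for LOXL4, the gene with the largest change, and for LOX and PLOD2, which textbooks list among the genes induced by low oxygen. Each runs 5′ to 3′ on the minus strand of GRCh38.p14, from RefSeq, and stops before any base that GENCODE release 29 counts as exon. Capitals mark ACGTG, a form of the core of the hypoxia response element, and CAGGTG, an E-box bound by SNAI and ZEB factors, each on either strand. The other form of that core, GCGTG, was not searched, and it occurs unmarked in the PLOD2 sequence.
LOXL4, chr10:98268251-98268444: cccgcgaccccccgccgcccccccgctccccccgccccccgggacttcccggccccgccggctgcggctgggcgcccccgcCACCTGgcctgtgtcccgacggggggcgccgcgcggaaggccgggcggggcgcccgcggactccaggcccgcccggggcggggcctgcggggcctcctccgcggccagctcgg
LOX, chr5:122078361-122078509: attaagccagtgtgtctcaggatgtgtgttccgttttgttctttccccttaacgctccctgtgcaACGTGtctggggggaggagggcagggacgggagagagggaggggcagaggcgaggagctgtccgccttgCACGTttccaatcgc
PLOD2, chr3:146161185-146161434: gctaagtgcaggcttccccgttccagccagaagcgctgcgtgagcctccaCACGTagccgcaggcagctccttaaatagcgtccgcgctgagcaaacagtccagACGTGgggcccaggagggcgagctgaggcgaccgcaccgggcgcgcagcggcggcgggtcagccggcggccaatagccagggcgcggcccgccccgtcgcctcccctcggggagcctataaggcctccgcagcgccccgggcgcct

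The RefSeq table held 10 start sites for 7 of the 9 members, and the 250 bases before each were searched on both strands. ACGTG occurred 4 times before the most upstream LOX start, of which 2 lie in the 149 bases printed, once in the overlapping windows of the other LOX starts, where it is the same match, and 2 times before the PLOD2 start. It did not occur in the windows of LOXL1, LOXL3, LOXL4, PLOD1 or PLOD3. Among all 35116 windows, 18.5% held ACGTG at least once, 7.52% at least 2 times and 0.669% at least 4 times. A CACGTG site reads as ACGTG on both strands and counted as 2 matches in these shares. The LOX and PLOD2 matches were separate sites, so the shares for 2 or 4 matches are not a like-for-like background. CAGGTG was present in 17.5% of all windows and occurred once before LOXL4, before 1 of the LOXL3 starts and before the 2 downstream LOX starts, whose windows overlap. The TEAD motif GGAATG was present in 11.9% of all windows and 2 times before the other LOXL3 start, and the AP-1 motif TGANTCA, present in 6.57%, was in none of these members' windows. None of the marked matches overlapped another motif of the search. The LOXL4 stretch was 88.1% G and C, against 59.1% for LOX and 72.4% for PLOD2.

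As facts of the whole series, the libraries held 37542568 to 40416964 counts. APOD had 628, 528 and 625 counts with ApoD overexpression and 9, 8 and 2 counts in controls (log2 fold change 6.63 ± 0.29 SE; edgeR adjusted p = 6.30e-08). Genes with a count numbered 17378 to 17789 with ApoD overexpression and 18591 to 18685 in controls. Epithelial markers (EPCAM, CDH1 and 4 keratins) were present, summing to 3179 to 3570 CPM with ApoD overexpression and 2742 to 3680 CPM in controls, sums made up mainly of KRT8, KRT18 and KRT5. Of the 6, 3 fell and 0 rose: KRT14 had a log2 fold change of −1.75 ± 0.21 SE, the cell adhesion gene CDH1 −1.29 ± 0.11 and EPCAM −0.30 ± 0.09 (highest edgeR adjusted p of the 3, 0.0123, for EPCAM). Of the adenoid cystic carcinoma markers, MYB and NFIB were counted in every library, and KIT and SOX10 were not analysed here. Fibroblasts are a usual source of these enzymes. Their 10 markers in the table summed to 10.2 to 14.0 CPM with ApoD overexpression and 27.2 to 32.8 CPM in controls, with COL1A1 and COL3A1 lower. The other 8 summed to 0.203 to 0.678 CPM with ApoD overexpression and 0.173 to 0.386 CPM in controls. ASPN was at 0 counts in all 3 ApoD overexpression libraries and at 0, 0 and 1 counts in controls. The 4 endothelial markers in the table summed to 1.35 to 2.30 CPM with ApoD overexpression and 8.10 to 13.4 CPM in controls, all 3 that were tested fell, and TEK was at 0 with ApoD overexpression. In controls TEK had 4, 14 and 1 counts. Of the immune markers, CD68 rose. PTPRC was at 0 counts in all 3 ApoD overexpression libraries and at 1, 12 and 0 counts in controls. The part of these marker differences in the results below was not tested.

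LOXL4, a secreted lysyl oxidase with scavenger receptor cysteine-rich domains, had 6.40, 6.11 and 6.18 CPM in the ApoD overexpression libraries and 94.4, 105.8 and 87.1 CPM in controls. CPM are counts per 1000000 after scaling of the libraries by trimmed mean of M-values (TMM). All 3 ApoD overexpression libraries lay far below every control, and the groups did not overlap. LOXL4 averaged 6.23 ± 0.15005 CPM with ApoD overexpression and 95.8 ± 9.45 CPM in controls (SD, n = 3 each). The log2 fold change was −3.94 ± 0.11 SE, a 15.4-fold lower level (edgeR adjusted p = 2.98e-09). No tested gene had a smaller p, and 103 of the 14629 had a more negative fold change. In these bulk libraries, fewer cells that express a gene and less RNA per cell cannot be told apart. The raw counts behind the ApoD overexpression values were 252, 217 and 237, so LOXL4 was low there but not absent.

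LOX, the founding enzyme of the family, which is secreted as a proenzyme, had 27.5, 21.25 and 20.9 CPM in the ApoD overexpression libraries and 22.7, 53.7 and 46.9 CPM in controls. Control replicate 1 lay below ApoD overexpression replicate 1, so the groups overlapped. The mean was 23.2 ± 3.69 CPM with ApoD overexpression and 41.1 ± 16.3 CPM in controls (SD, n = 3 each), and LOX fell with a log2 fold change of −0.82 ± 0.24 SE (edgeR adjusted p = 0.0149). The call was lost under 6 of 16 alternatives, among them leaving out ApoD overexpression replicate 2 (edgeR adjusted p = 0.0588), control replicate 2 (0.0634) or control replicate 3 (0.0544), and the DESeq2 Wald test (0.0594). Across the 16 its adjusted p spanned 2.71e-05 to 0.278. Without control replicate 1 the log2 fold change was −1.11.

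LOXL2, which is known to cross-link type IV collagen of basement membranes, was the most abundant lysyl oxidase in every library. It had 158.1, 153.2 and 161.9 CPM with ApoD overexpression and 179.7, 246.3 and 228.1 CPM in controls. The groups did not overlap, and control replicate 1 was again the lowest control. LOXL2 fell with a log2 fold change of −0.47 ± 0.11 SE (edgeR adjusted p = 0.00472), to 72.4% of the control level. In a test against a 1.5-fold change it did not pass.

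LOXL3, another member with scavenger receptor domains, was the only lysyl oxidase called higher. It had 75, 74 and 93 counts with ApoD overexpression and 40, 22 and 35 counts in controls, so every library of the first group lay above every control. At 2.14 ± 0.265 CPM with ApoD overexpression and 0.791 ± 0.232 CPM in controls (SD, n = 3 each) its log2 fold change was 1.43 ± 0.34 SE (edgeR adjusted p = 0.00432). By GENCODE release 29, 14.3% of its exon bases are shared with HTRA2 and 4.95% with DOK1, both on the opposite strand. The strand setting of the counts is not given in the sources used here, so reads of these genes may not be separable from those of LOXL3. HTRA2 had 1054, 1046 and 1005 counts with ApoD overexpression and 1073, 1085 and 1173 counts in controls, and DOK1 had 80, 75 and 77 counts with ApoD overexpression and 113, 128 and 136 counts in controls. After TMM scaling the log2 fold change was 0.02 ± 0.10 SE for HTRA2 (edgeR adjusted p = 0.901) and −0.58 ± 0.23 SE for DOK1 (edgeR adjusted p = 0.0552), and neither passed. The part of their reads in the LOXL3 counts was not tested.

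LOXL1, which is known for its role in elastic fibres, had 71, 41 and 29 counts with ApoD overexpression and 103, 92 and 79 counts in controls. The CPM of the groups did not overlap, at 1.24 ± 0.528 with ApoD overexpression and 2.23 ± 0.323 in controls (SD, n = 3 each). The log2 fold change of −0.85 ± 0.35 SE did not pass (edgeR adjusted p = 0.0609). It passed under 5 of 14 alternatives, among them leaving out ApoD overexpression replicate 1 (edgeR adjusted p = 0.0182). It was −0.36 once each library's abundance trend was removed. The antisense gene LOXL1-AS1, which shares 9.21% of the exon bases of LOXL1, had 91, 85 and 94 counts with ApoD overexpression and 73, 105 and 88 counts in controls.

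**Figure D1:**
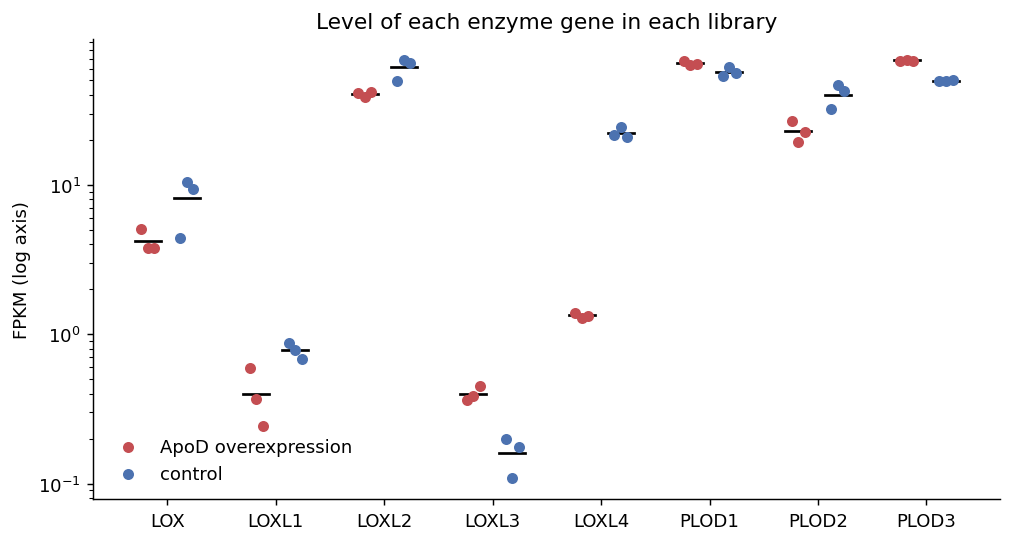
Level of the 8 tested enzyme genes in each library, in FPKM on a log axis, with ApoD overexpression in red left of control in blue; each point is a library and each bar the mean of 3. LOXL4 is at 1.29 to 1.40 FPKM in the ApoD overexpression libraries and at 20.8 to 24.5 FPKM in controls, and LOX is the only gene of the 8 whose groups overlap on this scale.

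The lysyl hydroxylases split. PLOD2, known as the hydroxylase of lysines in the telopeptides, where hydroxylation leads to more stable cross-links, had 107.0, 79.3 and 91.7 CPM with ApoD overexpression and 121.6, 173.6 and 153.5 CPM in controls. No ApoD overexpression library reached the lowest control, which was replicate 1. PLOD2 fell with a log2 fold change of −0.69 ± 0.14 SE (edgeR adjusted p = 0.00153), to 62.0% of the control level.

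PLOD3, which also carries glycosyltransferase activity toward hydroxylysine, moved the other way. It had 196.0, 205.0 and 199.2 CPM with ApoD overexpression and 136.3, 134.7 and 133.2 CPM in controls. Both groups were tight and well apart, and PLOD3 rose with a log2 fold change of 0.57 ± 0.08 SE (edgeR adjusted p = 0.000149). ZNHIT1, on the opposite strand, shares 7.56% of its exon bases and had 1771, 2217 and 1853 counts with ApoD overexpression and 1964, 2008 and 2102 counts in controls.

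PLOD1, which hydroxylates lysines within the triple helix, had 217.3, 208.2 and 209.5 CPM with ApoD overexpression and 162.9, 184.8 and 164.4 CPM in controls. The groups did not overlap and PLOD1 rose, with a log2 fold change of 0.31 ± 0.09 SE (edgeR adjusted p = 0.0113). This call depended on the scaling. With library totals in place of TMM the change was 0.19 (edgeR adjusted p = 0.0738), and with the abundance trend removed it was 0.12 (0.303). It was also lost in all 3 limma fits on FPKM and in the test against a 1.5-fold change. The median of all tested genes was −0.13 with library totals, against −0.02 with TMM.

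P4HA3 had 0, 1 and 0 counts with ApoD overexpression and 0, 5 and 1 counts in controls, and it was left out of the main test. The ratio of ApoD overexpression to control was 0.167 with a 95% counting interval of 0.00362 to 1.37, which covers counting error only and includes 1. At this depth no difference in P4HA3 was detectable.

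**Figure D2:**
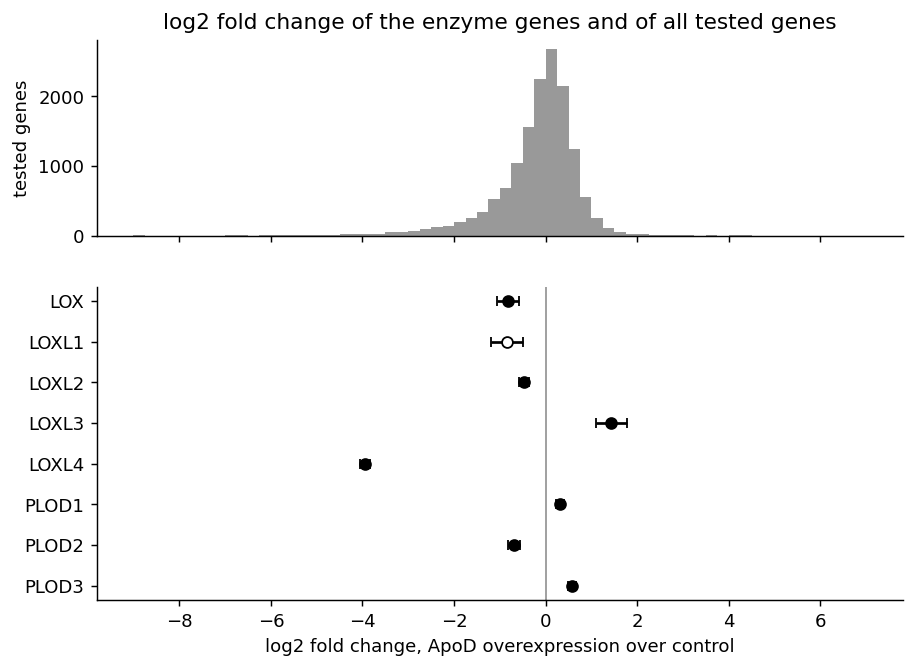
The upper panel counts all 14629 tested genes by log2 fold change, ApoD overexpression over control. The lower panel gives the 8 tested enzyme genes with bars of 1 SE, filled where edgeR adjusted p was under 0.05. LOXL4 lies at −3.94, and the other 7 lie between −0.85 and 1.43.

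Libraries of both groups did not overlap in CPM for 7 of the 8 tested members, all but LOX, against 58.7% of all tested genes. LOXL3, PLOD1 and PLOD3 were the 3 with higher libraries and LOXL1, LOXL2, LOXL4 and PLOD2 the 4 with lower ones, against 29% and 29.7% of all tested genes. Of the called members, LOXL3 alone was over 2-fold higher and LOXL4 alone over 2-fold lower, against 2.84% and 11.5% of all tested genes.

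Levels between genes were compared per length, in FPKM (counts per kilobase and per 1000000 counts of the library). With ApoD overexpression the order was PLOD3 (68.1 ± 0.584), PLOD1 (65.2 ± 2.45), LOXL2 (40.7 ± 1.53), PLOD2 (23.0 ± 3.79), LOX (4.22 ± 0.729), LOXL4 (1.34 ± 0.0518), LOXL1 (0.401 ± 0.176), LOXL3 (0.400 ± 0.0481) and P4HA3 (0.00394 ± 0.00682 FPKM, SD, n = 3). PLOD3 and PLOD1 overlapped there, as did LOXL1 and LOXL3, and the other neighbours did not. In controls the order was LOXL2 (61.1 ± 10.2), PLOD1 (57.0 ± 3.999), PLOD3 (49.7 ± 0.522), PLOD2 (40.2 ± 7.33), LOXL4 (22.3 ± 1.96), LOX (8.11 ± 3.26), LOXL1 (0.781 ± 0.0972), LOXL3 (0.161 ± 0.0466) and P4HA3 (0.0225 ± 0.0296 FPKM, SD, n = 3). LOXL2 and PLOD1 overlapped in controls, and the other neighbours did not. LOXL4 thus stood below LOX with ApoD overexpression and above it in controls. Its FPKM was above that of 53.2% of all genes with ApoD overexpression and of 87.2% in controls, while LOXL2 was above 92.3% with ApoD overexpression and 95.3% in controls.

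Summed over the 5 lysyl oxidases, the level was 48.8, 44.8 and 47.6 FPKM with ApoD overexpression and 76.5, 104.4 and 96.4 FPKM in controls. The ApoD overexpression mean was 50.9% of the control mean, and the groups did not overlap. The 3 lysyl hydroxylases summed to 162.6, 151.3 and 155.0 FPKM with ApoD overexpression and 135.0, 157.1 and 148.8 FPKM in controls, groups that overlapped on this scale. FPKM follow library totals and leave out the TMM factors used in the gene tests. Those factors were 0.946 to 0.975 with ApoD overexpression and 1.02 to 1.07 in controls. Both family sums depend on this choice, and they were not compared after TMM scaling.

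The share of each gene in the summed FPKM of its family was compared over libraries. LOXL4 held 2.85% ± 0.0494 of the lysyl oxidase sum with ApoD overexpression and 24.4% ± 3.46 in controls (SD, n = 3 each). LOXL2 held 86.5% ± 1.51 with ApoD overexpression and 66.0% ± 1.63 in controls, although its own level was lower. LOX held 8.94% ± 1.26 with ApoD overexpression and 8.53% ± 2.42 in controls, shares that overlapped. LOXL3 held 0.851% ± 0.107 with ApoD overexpression and 0.181% ± 0.0773 in controls, and the shares of LOXL1 overlapped.

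Among the lysyl hydroxylases PLOD2 held 14.7% ± 1.88 with ApoD overexpression and 27.2% ± 3.03 in controls (SD, n = 3 each). PLOD3 held 43.6% ± 1.89 with ApoD overexpression and 34.0% ± 2.59 in controls, and PLOD1 held 41.7% ± 0.0949 with ApoD overexpression and 38.8% ± 0.928 in controls. The ratio of PLOD2 to PLOD1 was 0.396, 0.306 and 0.352 with ApoD overexpression and 0.600, 0.755 and 0.751 in controls. A ratio within a library does not depend on how libraries are scaled. Over the 8 shares compared, 6 did not overlap between groups. Each of these gave a two-sided exact permutation p = 0.1, the smallest that 3 against 3 allows (0.133 adjusted over the 8 by Benjamini-Hochberg), so no share passed. Shares of a family sum to 100%, so they are not separate observations.

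**Figure D3:**
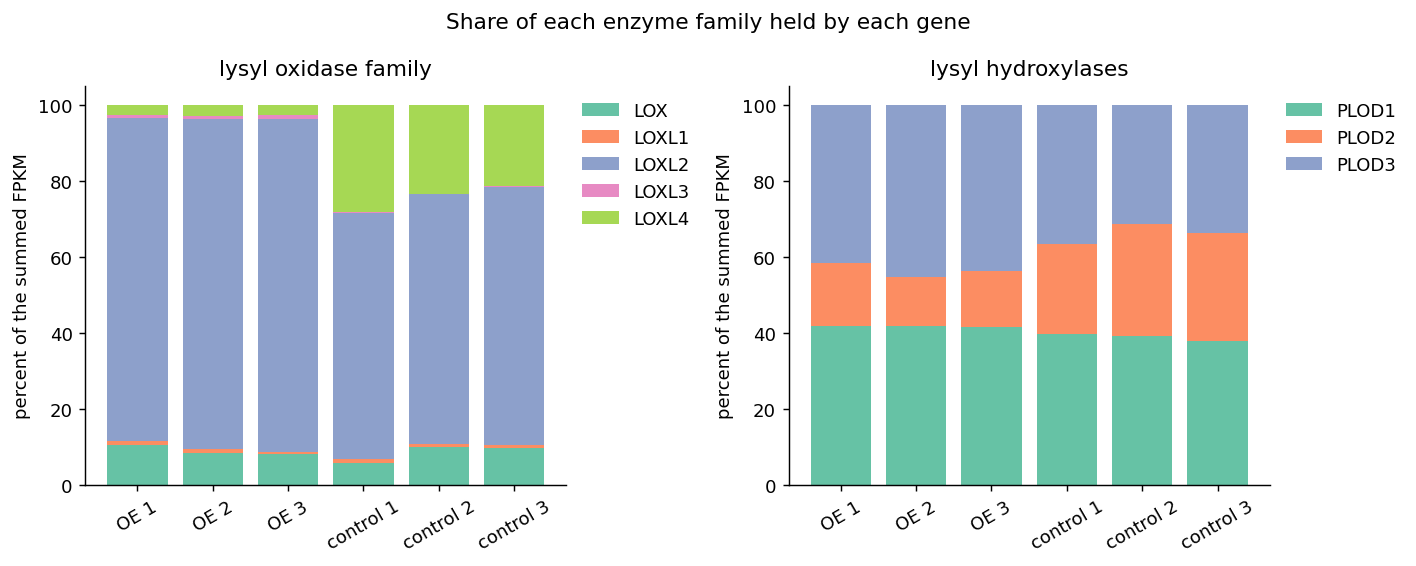
Percent of the summed FPKM of the 5 lysyl oxidases (left) and the 3 lysyl hydroxylases (right) held by each gene in each library, OE standing for ApoD overexpression. The LOXL4 segment is 2.79% to 2.89% in the ApoD overexpression libraries and 21.5% to 28.3% in controls, and the PLOD2 segment is 12.8% to 16.5% in the ApoD overexpression libraries and 23.8% to 29.5% in controls.

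The list of genes tied to iron, oxoglutarate and oxygen included known hypoxia targets. Of its 14 genes 13 were tested, of which 6 fell, 0 rose and 7 did not pass, with a median log2 fold change of −0.24, against −0.02 over all tested genes. Of all tested genes, 24.6% fell and 24.2% rose. With library totals, the abundance trend removed, or limma on filtered FPKM, 10 fell. CA9, a carbonic anhydrase, fell with a log2 fold change of −2.67 ± 0.42 SE. NDRG1 fell with a change of −2.47 ± 0.29, EGLN3, a prolyl hydroxylase that marks hypoxia-inducible factor for breakdown, with −1.99 ± 0.21, and the peptide hormone ADM with −0.71 ± 0.17 (highest edgeR adjusted p of the 4, 0.00477, for ADM). Named with their values already known, the other 2 that fell were HIF1A (−0.55 ± 0.14 SE) and ARNT (−0.52 ± 0.09 SE), which encode subunits of hypoxia-inducible factor (highest edgeR adjusted p of the pair, 0.00753). Other known hypoxia targets of the list did not pass, with log2 fold changes of 0.13 ± 0.14 SE for VEGFA, −0.20 ± 0.11 SE for SLC2A1 and −0.24 ± 0.11 SE for BNIP3 (edgeR adjusted p = 0.464, 0.156 and 0.0938).

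Control replicate 1 had the lowest value of the 3 controls in LOX, PLOD2, LOXL2, CA9, NDRG1 and EGLN3 alike. It was also the lowest control for PLOD1, which rose. For LOXL1, LOXL3 and PLOD3 it was the highest control, and LOXL4 was lowest in control replicate 3. The share of all tested genes that were lowest in control replicate 1 was not counted. As a percentage of the control mean, LOX stood at 66.8%, 51.7% and 50.9% in the ApoD overexpression libraries and at 55.3%, 130.6% and 114.1% in controls. NDRG1 stood at 19.9%, 16.6% and 17.6% with ApoD overexpression and at 49.6%, 149.7% and 100.7% in controls. All 3 ApoD overexpression libraries lay below every control for NDRG1, which was not so for LOX. Whether something sets control replicate 1 apart, and its part in these results, was not tested.

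**Figure D4:**
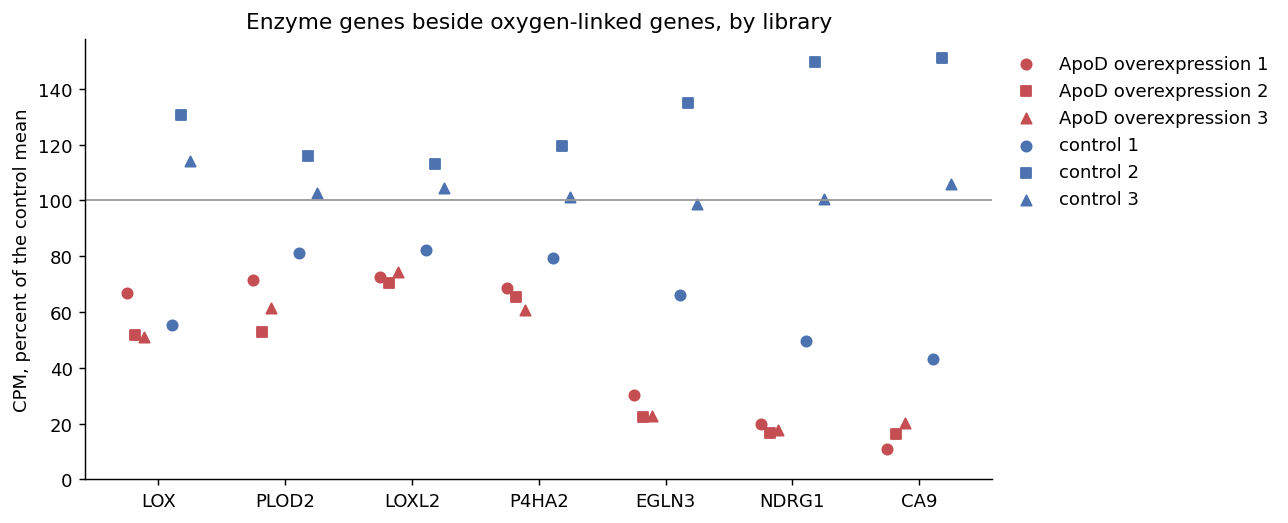
CPM of LOX, PLOD2, LOXL2 and P4HA2 and of the oxygen-linked genes EGLN3, NDRG1 and CA9 in each library, as percent of the control mean (grey line), with marker shape for the replicate number. EGLN3, NDRG1 and CA9 had the largest falls of the oxygen-linked list. VEGFA, SLC2A1 and BNIP3 of the same list, which are not shown, did not pass. Control replicate 1 is the lowest control in all 7 genes, and LOX is the only gene in which an ApoD overexpression library lies above it.

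Among partners of the hydroxylases in the endoplasmic reticulum, 14 of 15 genes were tested, of which 6 rose, 1 fell and 7 did not pass, with a median log2 fold change of 0.19. These counts stand beside 24.2% higher and 24.6% lower over all tested genes. The counts depend on the scaling, since 3 rose with library totals and 2 rose and 2 fell with the abundance trend removed. TMEM38B, a cation channel of the endoplasmic reticulum, rose by 0.58 ± 0.10 SE, the collagen chaperone SERPINH1 (HSP47) by 0.55 ± 0.09, and COLGALT1, which adds galactose to hydroxylysine, by 0.40 ± 0.08 on the log2 scale. P4HA2, like P4HA3 a catalytic subunit of prolyl 4-hydroxylase, fell to 62.8 ± 3.82 CPM with ApoD overexpression, against 96.6 ± 19.3 CPM in controls (SD, n = 3; log2 fold change −0.62 ± 0.13 SE). The highest edgeR adjusted p among these 4 was 0.00216, for P4HA2. P4HA1, a further catalytic subunit named with its value already known, had a log2 fold change of −0.22 ± 0.13 SE. It did not pass (edgeR adjusted p = 0.185). It averaged 34.4 FPKM with ApoD overexpression and 43.5 FPKM in controls, against 11.7 and 19.5 FPKM for P4HA2.

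Among proteins that process procollagen or present lysyl oxidases to their substrates, 10 of 16 were tested, of which 2 rose, 4 fell and 4 did not pass, with a median log2 fold change of −0.55. The shares over all tested genes were 24.2% higher and 24.6% lower. FN1, which encodes fibronectin, rose to 609.0 ± 42.4 CPM with ApoD overexpression, against 295.1 ± 23.3 CPM in controls (SD, n = 3; log2 fold change 1.05 ± 0.10 SE). EFEMP2, which encodes fibulin-4, a protein that brings LOX to elastin, had 21, 11 and 5 counts with ApoD overexpression and 43, 68 and 101 counts in controls, and it fell with a change of −2.39 ± 0.52. PCOLCE, an enhancer of procollagen C-proteinase, fell with −1.90 ± 0.40, and LTBP4 with −1.50 ± 0.13 (highest edgeR adjusted p of the 4, 0.00245). The related enhancer PCOLCE2, named with its value already known, was the other gene of the list that rose. It averaged 30.4 ± 2.22 CPM with ApoD overexpression and 23.0 ± 2.87 CPM in controls (SD, n = 3 each; log2 fold change 0.40 ± 0.12 SE; edgeR adjusted p = 0.0147), against 1.03 ± 0.498 CPM with ApoD overexpression and 3.85 ± 1.39 CPM in controls for PCOLCE. BMP1, the protease that releases active LOX from its proenzyme and named here with its value already known, fell with −0.44 ± 0.08 (edgeR adjusted p = 0.000954).

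The collagens that these enzymes modify were split. Of 16 genes 13 were tested, of which 5 rose, 5 fell and 3 did not pass, with a median log2 fold change of −0.04. Over all tested genes, 24.2% rose and 24.6% fell. COL3A1 had 6, 4 and 4 counts with ApoD overexpression and 161, 128 and 67 counts in controls (log2 fold change −4.52 ± 0.48 SE; edgeR adjusted p = 1.96e-05). COL1A1 fell with a change of −1.21 ± 0.15 and COL4A4 with −1.38 ± 0.20. COL4A3, with 5, 1 and 0 counts with ApoD overexpression and 11, 23 and 15 counts in controls, fell with −2.85 ± 0.86, a call lost under 4 of 14 alternatives. COL4A1 and COL4A2, the main chains of basement membrane type IV collagen and picked out after their values were seen, rose by 0.76 ± 0.08 and 0.88 ± 0.08 on the log2 scale. The highest edgeR adjusted p among COL1A1, COL4A1, COL4A2, COL4A3 and COL4A4 was 0.0159, for COL4A3. Picked out likewise, COL5A1 (0.46 ± 0.09 SE), COL5A3 (1.12 ± 0.25) and COL4A6 (0.31 ± 0.10) rose and COL4A5 (−0.37 ± 0.10) fell (highest edgeR adjusted p among these, 0.0208, for COL4A6). COL5A1 averaged 909.9 ± 37.7 CPM with ApoD overexpression and 661.7 ± 55.5 CPM in controls (SD, n = 3 each). COL1A1 averaged 11.3 ± 2.07 CPM with ApoD overexpression and 26.2 ± 2.84 CPM in controls.

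Lysyl oxidases need copper, and of 7 tested copper supply genes 1 rose and 0 fell, against 24.2% and 24.6% of all tested genes. SLC31A2, a copper transporter of intracellular membranes, rose to 16.3 ± 0.641 CPM with ApoD overexpression, against 8.02 ± 0.863 CPM in controls (SD, n = 3; edgeR adjusted p = 8.26e-05). ATP7A, the pump that loads secreted cuproenzymes, picked out after its value was seen, had a log2 fold change of −0.38 ± 0.16 SE and did not pass (edgeR adjusted p = 0.0649).

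**Figure D5:**
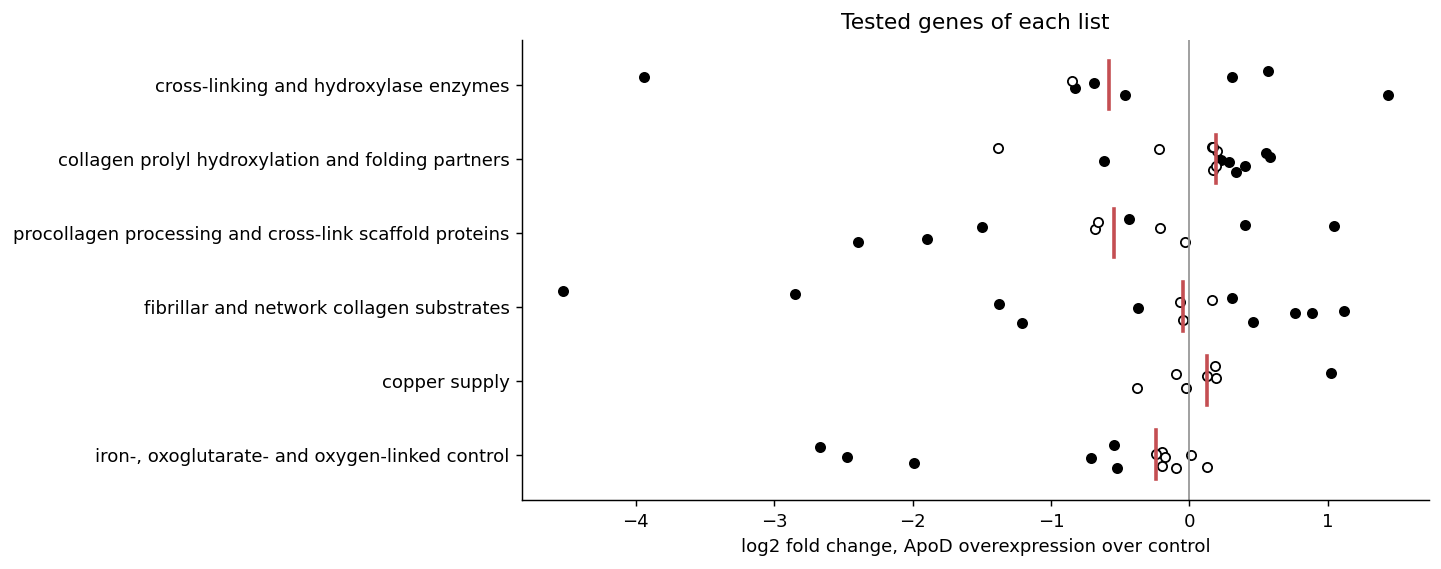
log2 fold change, ApoD overexpression over control, of the tested genes of the enzyme set and of 5 related lists; filled points passed the edgeR test, open points did not, and the red line is the median of the list. The enzyme set has its median at −0.58 and LOXL4 apart at the left, and the oxygen-linked list has 6 filled points, all below 0.

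The tested genes whose pattern over the 6 libraries was nearest to that of LOXL4, by Euclidean distance of mean-centred log2 CPM, were ATP6V1B1 (0.334), a subunit of the vacuolar proton pump, the aldehyde dehydrogenase ALDH3A1 (0.466) and the ectonucleotidase ENTPD8 (0.565). ALDH3A1 averaged 4.62 ± 0.414 CPM with ApoD overexpression and 79.6 ± 16.7 CPM in controls (SD, n = 3 each). Nearest to LOXL3 were NME2 (0.275), a nucleoside diphosphate kinase with a near-identical relative whose reads it can share, COA7 (0.308), an assembly factor of cytochrome oxidase, and the homeobox gene EN2 (0.351). All 6 of these genes share with their member a called difference between the groups in the same direction, which the distance includes.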

How the data were processed

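The count matrix, deposited by the authors, holds raw read counts of 21676 gene symbols in 6 libraries, per the file headers. A second matrix deposited by the authors gives FPKM. Per the labels' protocols, an RNeasy kit (RNA) and a SMARTER mRNA-Seq kit (libraries) were used. For the aligner, counter, strand setting and build: not given in the sources used here. All 108650 deposited FPKM values above 0 equalled the count over the library total and 1 gene length, within a relative tolerance of 1e-06.

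Counts were tested with edgeR 4.0.16 (R 4.3.3), quasi-likelihood, TMM scaling, filterByExpr with a minimum count of 10 (14629 genes), two-sided, Benjamini-Hochberg over those genes, threshold 0.05. The SE is the absolute log2 fold change over the root of F. On simulated counts with few changed genes and a fixed dispersion, median fold changes came near those set. That setting differs from these data, where 48.8% of tested genes were called, so it does not check the calls made here. Alternatives were other scalings, DESeq2 1.42.0, glmTreat, no filter, the replicate number as a block, leaving out each library, and limma 3.58.1 on log2(FPKM + 1) or log2(FPKM + 0.1). The members and lists were chosen with earlier results of these data known. Named were the members, APOD, up to 4 called genes per list by size of change, and the 3 nearest patterns to the largest change in each direction. Overlapping exons were read from GENCODE release 29 (GRCh38). The summed level of the immune marker list is not reported here.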

Additional observations from a re-analysis of the deposited data

How the results depend on the processing

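Under 16 alternatives (14 for LOXL1 and LOXL3, which the FPKM filter removed), none of the 8 tested members changed direction. P4HA3 was left out of the main test, and its values in the fits without a filter are not reported here. LOXL4, with log2 fold changes of −4.06 to −3.31, and LOXL3 passed in each. For LOXL3 the fits on counts gave 1.21 to 1.96, and limma on unfiltered log2(FPKM + 1) gave 0.27, a scale on which the pseudocount shrinks differences of genes below 1 FPKM. LOXL2, PLOD2 and PLOD3 lost their call only in glmTreat, the test against a 1.5-fold change. LOX lost it in 6 and PLOD1 in 6, and LOXL1 gained a call in 5. The cause of each change was not tested.

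With glmTreat 545 genes were called higher and 1430 lower, against 3539 and 3601, and unfiltered limma on log2(FPKM + 1) called 2317 higher. Library totals called 2581 higher and 4432 lower. Members higher numbered 1 in glmTreat and in both filtered FPKM fits (pseudocounts 1 and 0.1), and members lower 1 in glmTreat. Folding partners higher, 6 in the main test, numbered 3 with library totals and in all FPKM fits, 2 with the abundance trend removed and 0 in glmTreat, and lower ones, 1, numbered 2 with the trend removed and 0 in glmTreat. Processing and scaffold genes higher, 2, numbered 1 with library totals, in glmTreat and in the FPKM fits. Collagens higher, 5, numbered 1 in glmTreat and 3 in the filtered FPKM fits, and lower, 5, numbered 3 in glmTreat and 2 in those fits. The FPKM filter removed COL3A1, COL4A3, COL4A4 and, among the higher ones, COL5A3, so they could not be called in those fits. Copper genes lower, 0, numbered 1 with DESeq2 size factors, library totals, the trend removed, the Wald test, no filter and the filtered FPKM fits. Oxygen-linked genes lower, 6, numbered 10 with library totals, the trend removed and the filtered FPKM fits, and 3 in glmTreat. The difference in the LOXL1 share, −0.0210 points, was 0.00678 points with CPM shares.

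Leaving out each library gave 2652 to 3704 genes higher and 2833 to 3686 lower, 3 members higher and 3 to 5 lower. Folding partners numbered 3 to 4 higher and 1 to 2 lower, processing genes 1 to 2 higher and 4 to 5 lower, collagens 4 to 5 higher and 3 to 5 lower, copper genes 1 higher and 0 to 1 lower, and oxygen-linked genes 6 to 8 lower. The difference in the LOX share, 0.406 points, ranged from −0.988 without control replicate 1 to 1.17, and that of LOXL1 from −0.202 to 0.146 points.

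Libraries with the same replicate number did not deviate together (correlations −0.115, −0.00573 and −0.0391 over 14629 genes). With the replicate block, 3088 genes were higher and 3260 lower, 3 members were higher and 5 lower, and 3 folding partners were higher. Counts of 0 to 103 limit the precision of P4HA3, LOXL1 and LOXL3.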
